A study of Mus musculus with 6 samples.

Results

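The sham PVN arrays describe the paraventricular nucleus of the hypothalamus (PVN) of C57Bl/6 mice that were handled like mice given electroconvulsive seizure (ECS), but without the current. ECS was given through ear clips under isoflurane anaesthesia, so what the sham mice share with the ECS mice includes that handling. They are the 2 arrays of the series whose labels give sham treatment, of 6 arrays in all, and they give values for 12393 genes. Tissue was collected 2 h after the handling. The other 4 arrays come from mice that received 1 shock, with 2 arrays at 2 h and 2 at 6 h, and they enter only a comparison of which genes are brightest. The nucleus was cut by laser from 7 µm stained frozen sections. Each array holds the joined RNA of 2 to 3 mice, and the 2 runs of the experiment used separate mice. No label used here gives the age or sex of the mice. No contrast between groups was made, so the values below are levels with the spread of 2 pools and carry no test.

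The PVN is the output station of the hypothalamus for hormone release and autonomic control. Its large magnocellular neurons make oxytocin and vasopressin and send them to the posterior pituitary. Its smaller parvocellular neurons supply the anterior pituitary with releasing factors, or project to the brainstem and spinal cord. Peptide precursors are cut, amidated and stored in dense-core granules before release, which ties these neurons to a shared set of processing enzymes.

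Values are microarray signals in the arbitrary units in which the authors deposited them. Each gene is shown by the probe set (a group of short probes for 1 transcript) with the highest mean percentile over both arrays. Percentile means the share of all 12393 genes with a signal at or below that of the gene in the same array, given as mean ± SD of the 2 arrays (n = 2). A background was taken from 109 genes of olfactory, vomeronasal, trace amine and taste receptors, defensins and hair keratin-associated proteins, which brain tissue is not known for. The 95th percentile of these genes lay at a signal of 13.2 in replicate 1 and 13.3 in replicate 2, called the silent-gene level here. The highest signal among them was 61.7 in replicate 1 and 59.2 in replicate 2, so passing the level does not by itself show expression. Above the silent-gene level in both arrays lay 7734 genes (62.4% of all). Of the 109 background genes 3 did, a count that is kept low by how the level was set. In the brightest 10% of both arrays lay 1071 genes, or 8.64%. Where a pair of signals is given, that of replicate 1 comes first.

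The brightness of a probe set depends on its probes as well as on its transcript, so an order between genes is an order of signals and not of molecules per cell. Among the 4956 genes with at least 2 probe sets, the brightest and dimmest probe set of the same gene lay a median of 19.3 percentile points apart (here ranked among all probe sets), and 48.5% of these genes had a gap above 20 points. Of the 4956, 1670 had probe sets above the silent-gene level in both arrays beside others that were not. Cpe, Syp, Nos1, Thra, Nr2f2, Fkbp4 and Dio2, named below, are among them. Both sham arrays ranked the genes alike, with a Spearman rho of 0.928 across the 12393 genes, which are not independent replicates. Replicate 2 was the brighter array, with a median signal of 40.8 against 25.6. Genes above the silent-gene level were a median of 1.45 times brighter in replicate 2, while 18 probe sets for hybridization controls, which are added to each array after amplification, were a median of 1.10 times brighter. The 24 probe sets for poly-A control transcripts were a median of 4.43 times brighter in replicate 2, between 1.18 and 19.9 times. The ratio of the 3' to the 5' control probe set of Gapdh was 10.5 in replicate 1 and 6.43 in replicate 2, and that of Actb was 0.701 and 0.654. The silent-gene level was nearly the same in both arrays, and 8744 genes passed it in replicate 2 against 8142 in replicate 1. How far a pass in 1 array only follows the brightness of that array was not tested. Percentiles do not depend on the overall brightness of an array, and the part of RNA quality in any single value was not tested.

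**Figure D1:**
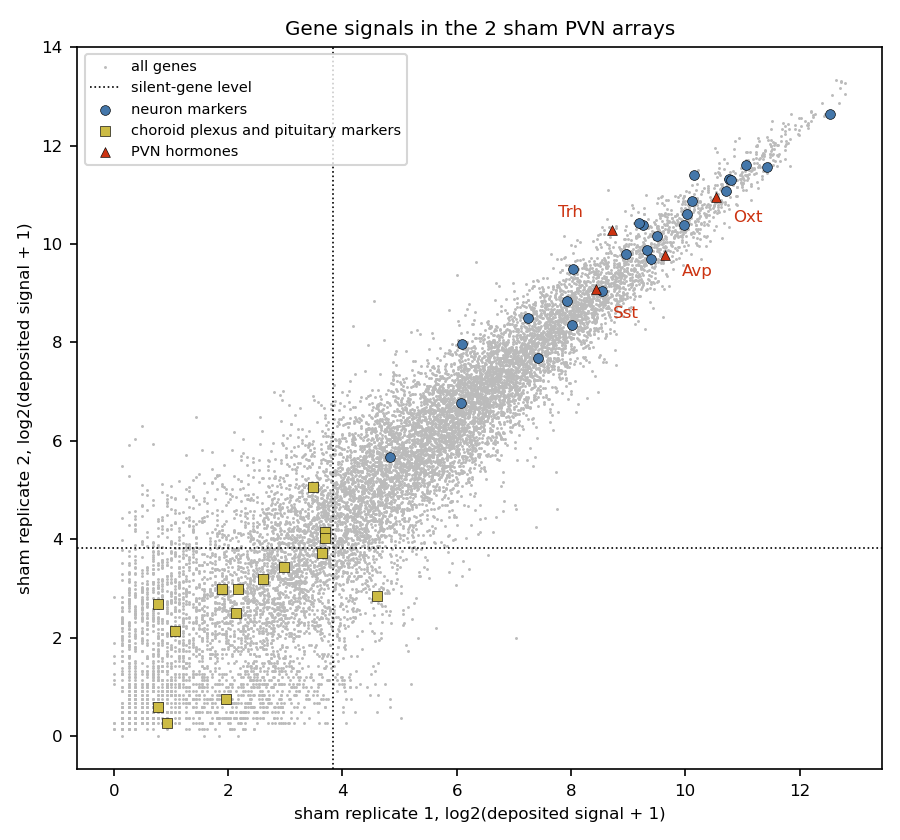
Signals of all 12393 genes in sham replicate 1 (horizontal) and sham replicate 2 (vertical), both as log2 of the deposited signal + 1, with dotted lines at the silent-gene level of 13.2 and 13.3. The 4 PVN hormones and the 25 neuron markers lie in the upper right quadrant, and the choroid plexus and pituitary markers lie at or below the silent-gene level in at least 1 array.

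The labelled nucleus was described first through 4 peptides known from it. They were chosen with earlier results of these data known, so their levels are a description and not a check of what was cut. Oxytocin, vasopressin, thyrotropin-releasing hormone and somatostatin were all among the brightest 10% of genes in both arrays, 4 of 4 against 8.64% of all genes. Oxt, the precursor of oxytocin, read 1495 in replicate 1 and 1988 in replicate 2, a percentile of 98.1 ± 0.0228 and rank 230 of 12393. Avp, the precursor of vasopressin, read 804 and 874, at 95.0 ± 1.35. The probe set of Oxt was the brighter of this pair in both arrays. Trh, the precursor of the hormone that drives thyrotropin release, read 421 and 1252 and stood at 93.9 ± 3.14. Sst, somatostatin, which restrains growth hormone release, read 348 and 543 and stood at 90.1 ± 0.148. Avp and Trh changed places between the arrays, so their order was within the spread, while Oxt was the highest and Sst the lowest of the 4 in each array. Of the 4, Trh had the widest spread between pools. Crh, the factor that drives the stress axis, was not analysed here.

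The start regions of these 4 genes are shown because their products are known from the nucleus. The windows are from RefSeq, build GRCm38.p6, and run from 250 bases before to 50 bases after the annotated start, read 5′ to 3′ in the direction of the gene. Capitals mark matches, on either strand, to the nuclear receptor half-site AGGTCA, the cyclic AMP response element TGACGTCA, the TATA box TATAAA or the CCAAT box CCAAT.
Oxt, chr2:130575919-130576218, plus strand: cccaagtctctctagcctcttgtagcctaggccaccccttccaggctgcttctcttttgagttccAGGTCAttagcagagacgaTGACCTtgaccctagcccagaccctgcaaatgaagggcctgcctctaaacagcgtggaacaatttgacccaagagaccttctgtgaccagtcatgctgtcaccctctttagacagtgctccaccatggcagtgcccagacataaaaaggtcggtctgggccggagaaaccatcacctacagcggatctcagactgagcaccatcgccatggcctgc
Avp, chr2:130582539-130582838, minus strand: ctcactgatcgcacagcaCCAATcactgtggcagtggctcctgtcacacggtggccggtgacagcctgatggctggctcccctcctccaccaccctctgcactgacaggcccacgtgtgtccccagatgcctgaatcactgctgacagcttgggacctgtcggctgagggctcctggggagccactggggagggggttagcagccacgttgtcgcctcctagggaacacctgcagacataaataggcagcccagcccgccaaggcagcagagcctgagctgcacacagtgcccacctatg
Trh, chr6:92244601-92244900, minus strand: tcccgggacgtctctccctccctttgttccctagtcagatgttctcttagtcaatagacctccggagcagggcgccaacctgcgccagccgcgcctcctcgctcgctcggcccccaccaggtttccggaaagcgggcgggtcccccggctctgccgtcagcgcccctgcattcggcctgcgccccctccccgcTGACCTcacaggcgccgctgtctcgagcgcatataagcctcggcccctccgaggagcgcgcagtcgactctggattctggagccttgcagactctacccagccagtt
Sst, chr16:23890795-23891094, minus strand: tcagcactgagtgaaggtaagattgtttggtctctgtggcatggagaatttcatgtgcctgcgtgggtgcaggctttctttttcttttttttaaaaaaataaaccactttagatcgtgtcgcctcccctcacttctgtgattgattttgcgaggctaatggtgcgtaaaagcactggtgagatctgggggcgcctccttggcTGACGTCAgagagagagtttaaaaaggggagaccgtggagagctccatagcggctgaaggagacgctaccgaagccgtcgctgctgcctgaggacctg
The Oxt window holds 2 half-sites in opposite orientation, at 185 and 166 bases before the start, and the Trh window holds 1 at 57 bases before it. The window of Sst holds the full cyclic AMP response element 48 bases before the start, and that of Avp holds 1 CCAAT box at 232 bases. No window of these 4 genes holds an exact match to TATAAA. Across 32851 RefSeq windows of the same length, 16.3% hold the half-site, 1.79% the cyclic AMP response element, 13.6% TATAAA and 37.4% CCAAT. A match is a run of letters and not a measured binding site, and the arrays do not measure binding.

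Peptides that PVN and nearby neurons make beside these hormones were mostly measurable, with a median percentile below the 94.4 of the hormones. Of 16 measured, 13 (81.25%, against 62.4% of all genes) lay above the silent-gene level in both arrays and 3 in 1 array. Their median percentile was 64.6 against 49.8 for all genes. Tac1, the precursor of substance P, was the brightest and the only one among the brightest 10% in both arrays. It read 365 in replicate 1 and 789.9 in replicate 2, above the hormone Sst in each. Nucb2, which holds the sequence of the satiety peptide nesfatin, read 302 and 458 at 88.6 ± 0.0571. Cartpt, a peptide that reduces feeding, read 259.7 and 308. Penk, the enkephalin precursor, read 169 and 372. These 4 lay above the 80th percentile in their mean. The pituitary adenylate cyclase-activating peptide Adcyap1 read 83.7 and 287, and cholecystokinin (Cck) read 71.8 and 139.9.

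Several of the remaining peptides differed widely between the pools. Pdyn, the dynorphin precursor, which vasopressin neurons are known to hold, read 39.2 in replicate 1 and 168 in replicate 2, a percentile SD of 14.4 points. Npy, neuropeptide Y, went the other way with 102 and 70.9. Gal, galanin, read 69.9 and 120.4 and Vip, vasoactive intestinal peptide, 36.8 and 69.1. At the low end were Pnoc, the nociceptin precursor, with 5.6 and 28.5, Nts, neurotensin, with 11.5 and 27.5, and Nmb, neuromedin B, with 29.5 and 16.7. Of these Pnoc and Nts were above the silent-gene level in replicate 2 only, and Apln, the precursor of apelin, which acts on vasopressin neurons, likewise with 12.2 and 45.8.

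The machinery that processes and stores peptides gave bright signals. Of 15 measured genes, 14 (93.3%, against 62.4% of all genes) were above the silent-gene level in both arrays. In the brightest 10% of both were 6 (40.0%, against 8.64%), and the median percentile was 90.4. Cpe, the carboxypeptidase that trims cut prohormones, read 3254 in replicate 1 and 4379 in replicate 2 and took rank 46. Of its 2 probe sets 1 was above the silent-gene level, and the dimmer lay at the 27.9th percentile of probe sets. Gnas, a locus that encodes the stimulatory G protein and a granule protein, read 2238 and 3733. The granins Chgb and Scg2 read 1462 and 1885, and 490.2 and 1631 respectively. Scg5 and Scg3, which act in granule sorting and prohormone convertase maturation, read 626 and 804, and 509.7 and 825 respectively. Chgb and Cpe were steady between pools, and Scg2 had a percentile SD of 3.14 points.

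The enzymes of the pathway spread over a wider range. Pcsk1, the convertase that opens many prohormones, read 173 in replicate 1 and 336 in replicate 2 at 83.1 ± 2.36. Pam, which amidates the ends of oxytocin and vasopressin, read 226 and 831 and differed by a percentile SD of 6.13 points. Pcsk1n, an inhibitor of Pcsk1, read 298 and 749. The lowest 3 members were Qpct, which forms the blocked end of peptides such as thyrotropin-releasing hormone, with 105 and 137, the general convertase Furin with 46.0 and 40.5, and Ptprn2, a granule membrane protein, with 7.6 and 80.7. Ptprn2 passed the silent-gene level in replicate 2 only. Its family member Ptprn read 339.7 and 578 and stood at 90.4 ± 0.784.

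**Figure D2:**
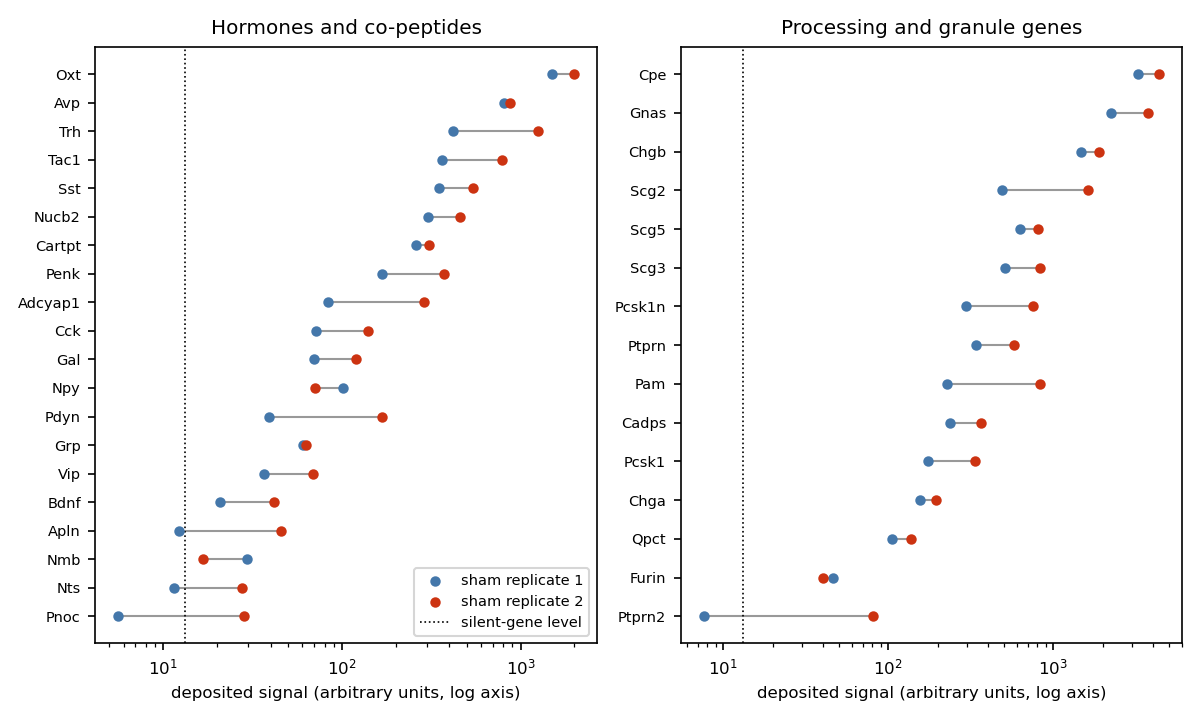
Deposited signals (log axis, arbitrary units) of hormones and co-peptides (left) and of processing and granule genes (right) in both sham arrays, each row 1 gene with the replicates joined by a line and the silent-gene level of 13.2 dotted. Oxt leads the left panel and Cpe the right one, and Pdyn, Pnoc and Ptprn2 have the longest lines.

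Transcription factors that build the hypothalamus were unevenly bright. Of 14 measured, 9 were above the silent-gene level in both arrays (64.3%, near the 62.4% of all genes), and the median percentile was 43.7. Sim1, the factor without which the PVN does not form, read 277 in replicate 1 and 268 in replicate 2 at 84.7 ± 4.14, and both of its probe sets lay above the silent-gene level. Its partner Arnt2 read 100.1 and 262. Pou3f2, which acts with them in the neuroendocrine lineage, read 38.8 and 32.2, and Otp, another factor of that lineage, read 14.2 and 17.3, just above the silent-gene level. Peg3, an imprinted zinc finger gene, was the brightest of the list with 2496 and 4348. Nkx2-2 and Dlx1, which pattern the brain along its axes, read 56.6 and 105, and 50.7 and 41.2 respectively. Lowest were Sim2 with 8.3 and 7.0, Hmx2 with 5.7 and 3.3 and Rax, a factor of the ventricle lining, with 3.0 and 2.9, none of them above the silent-gene level in either array.

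Markers of the neighbouring hypothalamic nuclei were low, with 3 of 9 measured genes (33.3%, against 62.4% of all genes) above the silent-gene level in both arrays. Their median percentile was 27.4. Pomc, which marks arcuate neurons, was the brightest with 62.3 in replicate 1 and 126 in replicate 2 at 65.8 ± 4.01, above the level in both of its probe sets. Ghrh, the growth hormone-releasing factor of the arcuate nucleus, read 32.2 and 55.5, and Tac2, neurokinin B, read 19.3 and 17.6. Hcrt, the orexin of the lateral hypothalamus, read 6.6 and 1.6. Nr5a1, the factor that defines the ventromedial nucleus, read 5.7 and 15.2, above the level in replicate 2 only. Hdc, which makes histamine in the tuberomammillary nucleus, read 14.8 and 12.1, above it in replicate 1 only. Six6 and Lhx1, factors of the suprachiasmatic nucleus, read 8.0 and 5.7, and 12 and 7.8 respectively, and Npvf, a peptide of the dorsomedial nucleus, read 6.5 and 6.6. Hcrt and the last 3 did not pass the level in either array.

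Transmitter genes ran from bright to silent. Of 12 measured, 8 (66.7%, near the 62.4% of all genes) were above the silent-gene level in both arrays. Gad1 and Gad2, which make GABA, read 345 in replicate 1 and 980.3 in replicate 2, and 261 and 513 respectively. Slc32a1, which loads GABA into vesicles, read 128 and 386. Slc17a6, the vesicular glutamate transporter of the hypothalamus and of PVN neurons, read 174 and 485, at a percentile of 85.4 ± 5.35. Nos1, the nitric oxide synthase that oxytocin neurons are known to make, read 184 and 107, and unlike those 4 genes it was higher in replicate 1. Th, the first enzyme of dopamine synthesis, read 87.8 and 82.7, and Ddc, the next enzyme, 35.6 and 58.1. Slc6a3, the dopamine transporter, lay close to the silent-gene level with 14.9 and 13.5. Dbh, which makes noradrenaline, was at 0.4 and 0.8, Slc6a5, the glycine transporter, at 0.4 and 3.4, Slc18a3, of cholinergic vesicles, at 0.6 and 8.8 and Slc6a4, the serotonin transporter, at 5.3 and 4.0, all 4 below the silent-gene level in both arrays.

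**Figure D3:**
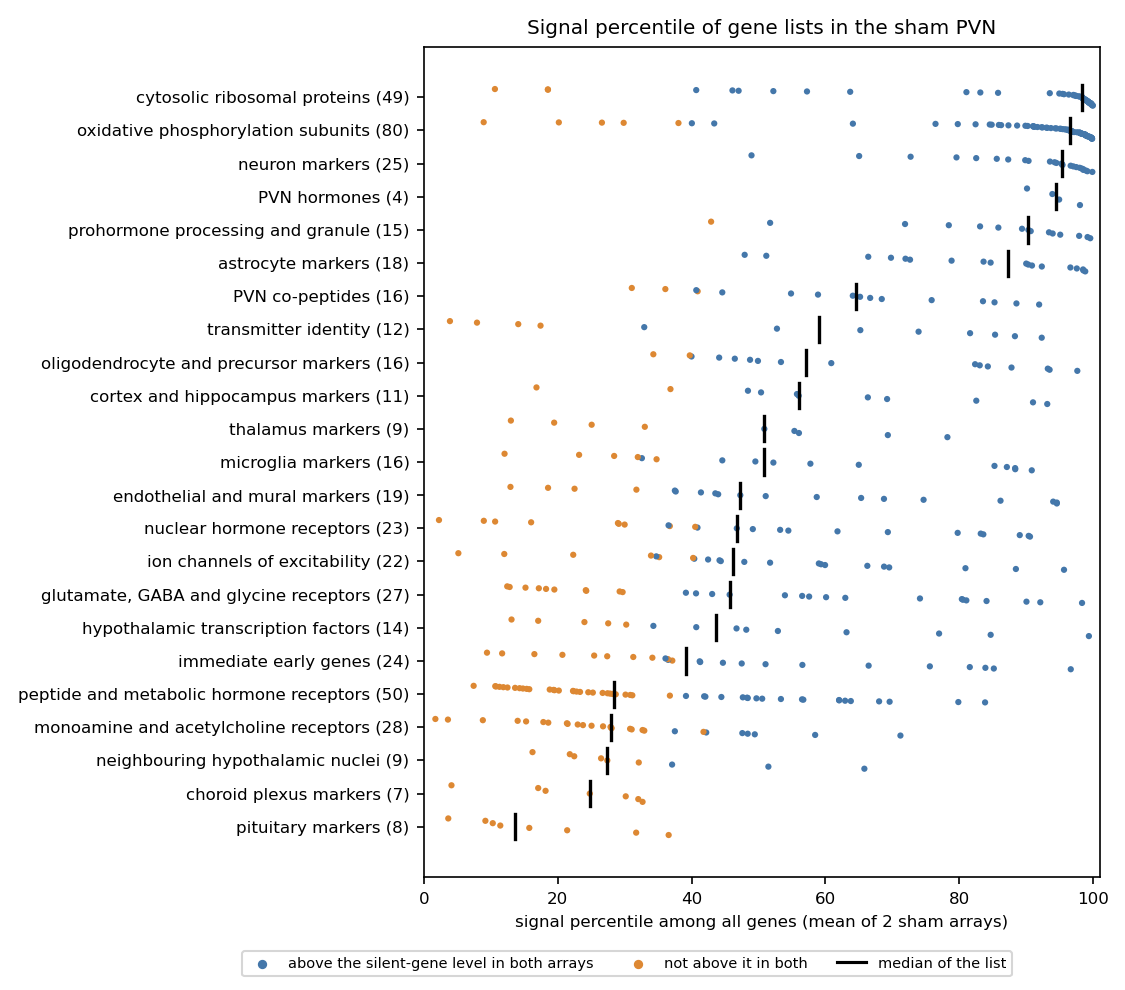
Mean signal percentile of every measured gene of 23 lists over the 2 sham arrays, with the number measured in brackets, a black bar at the median of the list, and colour showing whether the gene is above the silent-gene level in both arrays. Medians run from 98.4 for ribosomal proteins to 13.6 for pituitary markers, with PVN hormones at 94.4 and peptide hormone receptors at 28.4.

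Receptors for peptides and metabolic hormones were dim as a class. Of 50 measured, 20 (40.0%) were above the silent-gene level in both arrays against 62.4% of all genes, 9 in 1 array and 21 in neither, and none was in the brightest 10% of both. At the 99th percentile of the background genes 13 were above (26.0%, against 49.0% of all genes). The brightest was Ghr, the growth hormone receptor, with 159.8 in replicate 1 and 416 in replicate 2 at 83.9 ± 5.06. Adcyap1r1, the receptor of the peptide Adcyap1, read 144 and 255, so peptide and receptor were both measurable here. Ntsr2, a neurotensin receptor known from astrocytes, read 125 and 93.3, and the calcitonin receptor Calcr 80.3 and 119. Cckar, a cholecystokinin receptor, read 53.6 and 119. The dimmest were Avpr1b with 0.9 and 1.5, Vipr1, a receptor of vasoactive intestinal peptide, with 3.1 and 1.1, and Avpr2 with 0.2 and 6.8.

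Receptors of the hormones that the nucleus itself makes mostly gave signals no higher than the silent-gene level. Avpr1a, the vasopressin receptor of the brain and vessels, read 37.4 in replicate 1 and 34.0 in replicate 2 and was above the level in both arrays and both probe sets. Sstr2, a somatostatin receptor, read 104 and 55.6, higher in replicate 1, with a percentile SD of 14.5 points. Oxtr, the oxytocin receptor, read 2.1 and 4.5, a percentile of 13.6 ± 2.54, on its 1 probe set. Crhr1, the main receptor of the stress axis factor, read 2.5 and 16.6 and passed the level in replicate 2 only. Crhr2 read 4.5 and 6.8 and Trhr, the receptor of thyrotropin-releasing hormone, 4.8 and 7.1, on 2 probe sets each. The other somatostatin receptors read 3.3 and 13.0 for Sstr1, 2.9 and 8.6 for Sstr3, 6.1 and 25.5 for Sstr4 and 14.4 and 10.9 for Sstr5. Of these 4, Sstr4 passed the level in replicate 2 and Sstr5 in replicate 1. A signal at the silent-gene level bounds what these probe sets could detect and does not show that a receptor is absent.

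**Figure D4:**
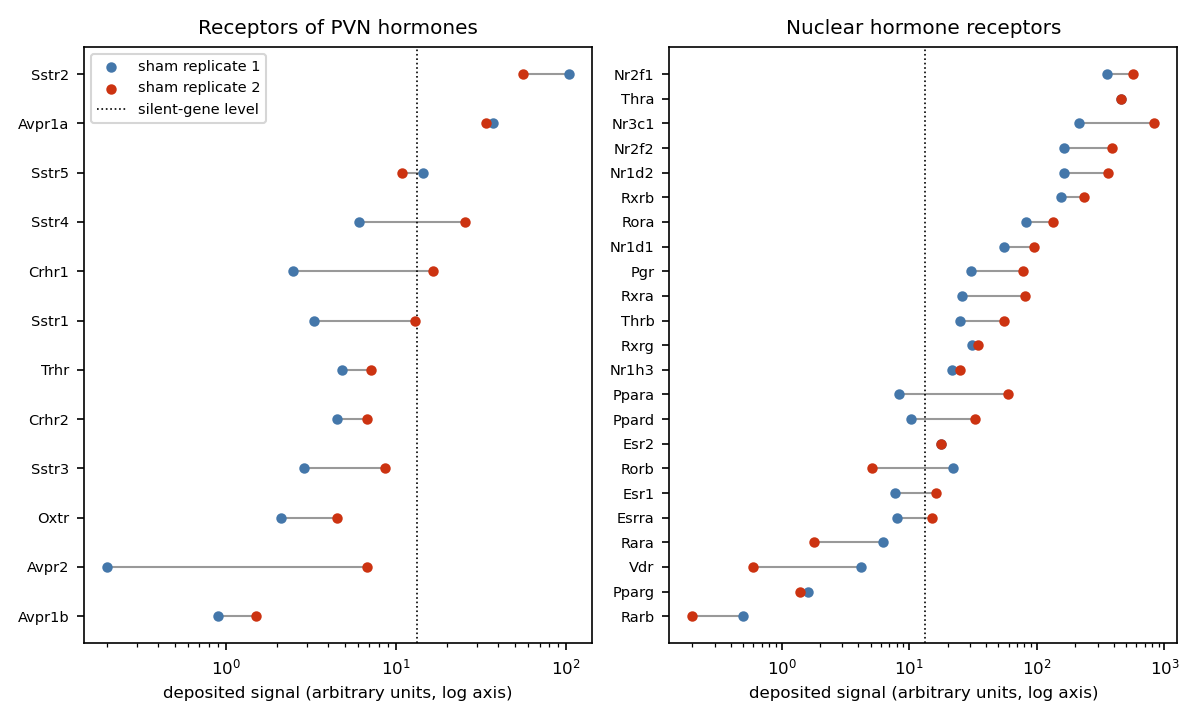
Deposited signals (log axis, arbitrary units) of the receptors of PVN hormones (left) and of nuclear hormone receptors (right) in both sham arrays, each row 1 gene with the replicates joined by a line and the silent-gene level of 13.2 dotted. Only Sstr2 and Avpr1a lie right of the dotted line in both arrays on the left, and 14 of 23 nuclear receptors do on the right.

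Nuclear receptors, which turn steroid and thyroid signals into transcription, included bright and silent members. Of 23 measured, 14 (60.9%, against 62.4% of all genes) were above the silent-gene level in both arrays, with a median percentile of 46.8. With the 99th percentile of the background genes as the level, 8 were above it (34.8%, against 49.0% of all genes). Nr3c1, the glucocorticoid receptor through which corticosterone feeds back on the nucleus, read 215 in replicate 1 and 831 in replicate 2, a percentile of 89.1 ± 6.62, and all 3 of its probe sets were above the level. Its mean over probe sets put it at 82.2. Nr3c2, the mineralocorticoid receptor, was not analysed here. Thra, a thyroid hormone receptor, read 459 and 457, while Thrb, the form that serves feedback on the thyroid axis, read 25.0 and 55.5. Nr2f1 and Nr2f2, orphan receptors that pattern the brain, read 358 and 572, and 163 and 388 respectively. Nr1d2, a clock repressor, read 164 and 361, and Rxrb, a partner of many nuclear receptors, 155 and 233.

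The oestrogen receptors were low. Esr2, the oestrogen receptor that PVN neurons are known for, read 17.9 in replicate 1 and 17.8 in replicate 2. That was above the silent-gene level in both arrays but below the highest signal of the background genes. Esr1 read 7.7 and 16.1, above the level in replicate 2 only. Pgr, the progesterone receptor, read 30.7 and 77.8 and stood higher, at 54.5 ± 7.01. The lowest 3 of the class were Rarb, a retinoic acid receptor, with 0.5 and 0.2, Pparg, of fat metabolism, with 1.6 and 1.4, and Vdr, the vitamin D receptor, with 4.2 and 0.6. Among the genes that handle these hormones, 6 of 8 measured (75.0%, against 62.4% of all genes) were above the level in both arrays. Hsd11b1, which regenerates active glucocorticoid, read 39.9 and 47.4, whereas Hsd11b2, which inactivates it, read 1.5 and 11.4. Dio2, which makes active thyroid hormone in glia and tanycytes, read 88.7 and 149, and Dio1, the liver form, 1.6 and 0.7. Slco1c1, a thyroid hormone transporter of the blood-brain barrier, read 72.0 and 136, and Crym, which binds thyroid hormone in the cell, 24.9 and 41.2. Fkbp4 and Fkbp5, chaperones of the glucocorticoid receptor with opposed actions, read 146 and 339.6, and 45.7 and 35.3 respectively.

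Receptors for glutamate, GABA and glycine held a few bright genes. Of 27 measured glutamate, GABA and glycine receptor genes, 17 (63.0%) were above the silent-gene level in both arrays, near the 62.4% of all genes, and their median percentile was 45.7. Gabbr1, a subunit of the GABA-B receptor, was the brightest with 1892 in replicate 1 and 2024 in replicate 2, at rank 203. Gabrg1, a GABA-A subunit, read 417 and 709. The AMPA receptor subunits Gria2, Gria1 and Gria3 read 359 and 513, 152 and 463, and 233 and 193 respectively, and Gria4 read 47.7 and 70.2. Glrb, the shared glycine receptor subunit, read 133 and 306. The bottom 3 were the NMDA subunit Grin2d with 1.7 and 4.1, Gabra6, which marks cerebellar granule cells, with 1.7 and 4.4, and the kainate subunit Grik3 with 1.2 and 7.8.

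Receptors for monoamines and acetylcholine were mostly dim. Of 28 measured, 7 (25.0%, against 62.4% of all genes) were above the silent-gene level in both arrays. The count depended on the setting, with 14 in replicate 2 alone (50%, against 70.6% of all genes), 11 in replicate 1 alone (39.3%, against 65.7%) and 2 with the 99th percentile of the background genes (7.14%, against 49.0%). Hrh1, the histamine receptor through which histamine excites vasopressin neurons, read 102 in replicate 1 and 130.3 in replicate 2 at 71.2 ± 2.48. Htr2c, a serotonin receptor of feeding circuits, read 77.9 and 47.2. Chrna7 and Chrna4, nicotinic subunits, read 26.3 and 54.5, and 22.6 and 28.6 respectively. Htr1b and Adra2c, which act at nerve terminals, were several times brighter in replicate 2, with 14.3 and 86.0, and 16.3 and 70.6 respectively. Dimmest of all were Htr5b with 0.2 and 0.4, Chrm4 with 0.4 and 0.7 and Htr6 with 0.3 and 4.5.

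Ion channels that set firing were above the silent-gene level in both arrays in 16 of 22 cases (72.7%, against 62.4% of all genes), with a median percentile of 46.1 against 49.8. Scn2a, a voltage-gated sodium channel of axons, was the brightest with 802 in replicate 1 and 1119.9 in replicate 2 at 95.7 ± 0.268. Kcnmb4, the neuronal subunit of the large-conductance potassium channel, read 329 and 417, and the pore subunit Kcnma1 58.4 and 139.7. Scn1a and Scn8a read 219 and 199.8, and 98.5 and 106 respectively, and the calcium channel Cacna1a 83.6 and 135. Kcnn3, a channel of the afterhyperpolarization that shapes magnocellular firing, read 18.5 and 28.6. Trpv2 read 31.8 and 38.6, while Trpv4, a channel linked to osmosensing, read 17.0 and 13.2, above the silent-gene level in replicate 1 only. At the low end were Hcn3 with 0.5 and 1.1, Scn3a with 0.1 and 8.8 and Cacna1g with 5.0 and 9.6.

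Neuron markers were above the silent-gene level in both arrays without exception among the 25 measured, against 62.4% of all genes. In the brightest 10% of both arrays were 17 (68.0%, against 8.64%), and the median percentile of the list was 95.3. Snap25, which fuses synaptic vesicles with the membrane, read 5899 in replicate 1 and 6349 in replicate 2 and took rank 11. Stmn3, of the microtubule regulators, read 2751 and 3026, the calcium sensor Vsnl1 2137 and 3105, the vesicle protein Syp 1748 and 2548, the glycolytic enzyme Eno2 1773 and 2515 and the light neurofilament Nefl 1676 and 2146. Lowest were Nefh, the heavy neurofilament, with 27.6 and 49.7, Rbfox3, the NeuN antigen, with 66.1 and 108, and Syn2 with 67.4 and 249. In tissue of this kind, fewer cells of a type and less RNA per cell cannot be told apart.

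Astrocyte markers were above the silent-gene level in both arrays in all 18 cases, against 62.4% of all genes. In the brightest 10% of both were 7 (38.9%, against 8.64%), and the median percentile was 87.4. Cst3, a secreted protease inhibitor, read 2436 in replicate 1 and 2457 in replicate 2, Glul, which makes glutamine, 1534 and 2977, the chaperone Clu 2052 and 2184 and the gap junction protein Gja1 1344 and 1638. Aldoc read 955 and 1375 and the glutamate transporter Slc1a3 429 and 740.4. Gfap, the intermediate filament of reactive astrocytes, read 181 and 182 and stood below these. The dimmest were Sox9 with 25.7 and 48.0, Aldh1l1 with 38.7 and 45.7 and Fgfr3 with 77.7 and 105.

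Oligodendrocyte markers spread over a wide range. Mbp, the basic protein of myelin, read 1376 in replicate 1 and 1685 in replicate 2, with 7 of its 8 probe sets above the silent-gene level, Mobp read 598 and 736 and Cnp 476 and 854. Car2, Cldn11 and Olig1 read 261 and 465, 237 and 289, and 222 and 259 respectively. In all, 14 of 16 oligodendrocyte and precursor markers (87.5%, against 62.4% of all genes) were above the level in both arrays, with a median percentile of 57.1. The bottom 3 were Cspg4, of precursors, with 4.4 and 49.3, Sox10 with 9.0 and 51.2 and Mog with 21.4 and 23.1. On the probe sets shown, Cspg4 and Sox10 passed the level in replicate 2 only, while the other 2 of the 3 probe sets of Sox10 passed it in both arrays. The count is 15 with the mean over probe sets (93.75%, against 60.7% of all genes).

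Microglia markers were above the level in 11 of 16 cases (68.8%, near the 62.4% of all genes), with a median percentile of 50.9. Laptm5, a lysosomal membrane protein, read 318 in replicate 1 and 709.7 in replicate 2, the complement chain C1qb 329.8 and 409, the growth factor receptor Csf1r 428 and 340.0, the protease Ctss 223 and 494, the adaptor Tyrobp 233 and 342 and Aif1 96.9 and 73.0. Dimmest of all were Itgam with 0.9 and 5.4, Ptprc, a marker of all blood leukocytes, with 5.2 and 10.4, and Trem2 with 13.8 and 7.7. Of 19 endothelial and mural markers 15 were above the level in both arrays (78.95%, against 62.4% of all genes). Their median percentile was 47.3, against 49.8 for all genes. With the 99th percentile of the background genes as the level, 9 were above it (47.4%, near the 49.0% of all genes). The brightest were Bsg with 562 and 1117, the pericyte gene Rgs5 with 522 and 1203 and the glucose transporter Slc2a1 with 807 and 672, followed by Itm2a with 285 and 324, the barrier transporter Slco1a4 with 95.0 and 206 and Vtn with 118 and 90.5. At the low end were Tagln, of smooth muscle, with 1.9 and 4.2, Anpep with 2.9 and 8.3 and Pecam1 with 2.3 and 16.7.

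Tissues that border the nucleus or could be carried over in the cut were described in the same way. Choroid plexus markers were above the silent-gene level in both arrays in 0 of 7 cases, against 62.4% of all genes. In replicate 2 alone (without replicate 1) 2 were above it (28.6%, against 70.6% of all genes). Chemosensory receptors alone as background also gave 2 (28.6%, against 64.4%), and the 90th percentile of the background genes gave 4 (57.1%, against 69.6%). Ttr, transthyretin, which the choroid plexus makes in great amount, read 11.9 in replicate 1 and 15.3 in replicate 2 on its brightest of 3 probe sets. Sostdc1 and Otx2 read 11.9 and 16.8, and 11.5 and 12.2 respectively, Kl, Folr1 and Cldn2 read 6.9 and 9.8, 3.5 and 6.9, and 2.7 and 6.9 respectively, and Aqp1 read 0.7 and 0.5. Pituitary markers were above the level in 0 of 8 cases, against 62.4% of all genes. The count was 1 in either array alone, with the 90th percentile and against chemosensory receptors alone. That is 12.5%, against 64.4% to 70.6% of all genes in these settings. Gh, growth hormone, read 5.1 and 8.2 on the brightest of 4 probe sets, Prl, prolactin, 0.9 and 0.2 and Cga, the shared hormone subunit, 2.9 and 0.7. The other 5, Lhb, Fshb, Tshb, Pitx1 and Ghrhr, read 0.7 and 5.4, 1.1 and 3.4, 23.3 and 6.2, 10.2 and 32.6, and 3.4 and 4.7 respectively.

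The wall of the third ventricle, which lies beside the PVN, had a mixed showing. Of 7 ependymal and tanycyte markers, 4 were above the level in both arrays (57.1%, against 62.4% of all genes). With the 99th percentile of the background genes 2 were above it (28.6%, against 49.0%). Vim, vimentin, read 324 in replicate 1 and 545 in replicate 2, Rarres2 63.1 and 62.0, the ciliary gene Tekt1 22.6 and 61.9 and Nes, nestin, 26.4 and 20.2. Foxj1, the master factor of motile cilia, read 0.8 and 2.7, Spag6l, of the cilium, 12 and 18.1 and Rax 3.0 and 2.9, and none of these 3 was above the level in both arrays. Vim is also made by endothelial cells and astrocytes.

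Genes known from cortex and hippocampus were above the level in 9 of 11 cases (81.8%, against 62.4% of all genes). Their median percentile was 56.0, against 49.8 for all genes. Mef2c read 394 in replicate 1 and 1019.8 in replicate 2, Camk2a, the synaptic kinase, 353 and 639.6, Rprm 180.3 and 293, Nrgn, neurogranin, 70.4 and 155, Tbr1, a factor of excitatory cortical neurons, 88.7 and 92.1 and Neurod1 42.2 and 68.2. Lowest were Prox1, of the dentate gyrus, with 3.0 and 6.1, Neurod2 with 12.7 and 27.2 and Neurod6, of cortical pyramidal cells, with 17.7 and 71.0. Several of these genes are also made by other neurons and glia, and whether cells from outside the nucleus contributed was not tested.

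Thalamic markers were above the level in 5 of 9 cases (55.6%, against 62.4% of all genes). With the mean over probe sets 3 were above it (33.3%, against 60.7%). Zic1 read 173 in replicate 1 and 174 in replicate 2, Rora 81.7 and 135, Ntng1 58.0 and 50.2, Tcf7l2, a defining factor of the thalamus, 38.7 and 69.3, on 1 of its 4 probe sets, and Rgs16 20.4 and 80.9. Prkcd and Gbx2, which mark thalamic relay neurons, read 9.2 and 22.9, and 4.8 and 14.6 respectively, and Synpo2 and Lef1 8.1 and 3.1, and 4.6 and 1.2 respectively. Of 5 striatal genes 4 were above the level (80.0%, against 62.4% of all genes), or 3 with the mean over probe sets (60.0%, near the 60.7% of all genes). Foxp1 led with 94.1 and 255, followed by Pde10a with 68.0 and 91.6 and Rgs9 with 50.5 and 45.3. Ppp1r1b, the DARPP-32 phosphoprotein of striatal projection neurons, read 13.3 and 23.9 and Rasd2 39.7 and 9.1.

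Red blood cell transcripts were uneven, with 2 of 5 measured blood markers (40.0%, against 62.4% of all genes) above the silent-gene level in both arrays. Hbb-b2, a beta globin, read 501 in replicate 1 and 478 in replicate 2 and Hba-a2, an alpha globin, 181 and 633, and transcripts of near-identical globin copies may bind the same probes. Alas2, the haem enzyme of red cells, read 7.6 and 25.1, Hba-a1 8.0 and 6.9 and Slc4a1 6.8 and 5.6, none of them above the level in both arrays. Of the sex-linked genes, the Y-linked Kdm5d, Eif2s3y and Uty read 94.4 and 314, 101 and 109, and 25.0 and 17.7 respectively, and Xist, the RNA of the inactive X chromosome, read 0.4 and 5.1. Each pool thus gave Y-linked signal above the silent-gene level and Xist signal below it.

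The 25 brightest genes were led by general cellular and neuronal transcripts. Malat1, a nuclear long noncoding RNA, took rank 1 with 6742 in replicate 1 and 10193 in replicate 2, and all 5 of its probe sets were at or above the 96.5th percentile of probe sets. Tuba1a, the main alpha tubulin of neurons, read 7086 and 9877, Pebp1, a kinase-binding protein and the source of a hippocampal peptide, 7147 and 8452, and Rpl13a, of the large ribosomal subunit, 6738 and 10009.8. Hnrnpab, an RNA-binding protein, read 6407 and 10342 on 1 of 7 probe sets whose dimmest lay at the 34.9th percentile, so its place rests on that probe set. AY036118, a transcript without a gene name, read 6725 and 9234, Rpl38 6619.7 and 7433 and the mitochondrially encoded subunit ND5 6087 and 8385.

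Cytoskeleton genes followed, with the actin-binding Pfn2 at 5349.8 in replicate 1 and 7512 in replicate 2, Tuba4a at 5566 and 6413 and Tubb2a at 4729 and 6572. Snap25 was the one member of the neuron marker list among the 25. The chaperone Hspa8 read 4708 and 6624, Rps29 5529 and 6189, Atp6ap2, the (pro)renin receptor and a proton pump subunit, 4931 and 6347, and the chromatin protein Hmgn1 4815 and 6124. Mdh1, of malate metabolism, read 4072 and 6008, with its dimmest of 4 probe sets at the 10.7th percentile. The selenoprotein Selenow read 4711 and 5816, the adaptor Ywhae 3688 and 6391 and the noncoding Gas5 4520.4 and 5504. The other 5 encode subunits of the respiratory chain and ATP synthase, Atp5a1, Ndufa5, Atp5h, Ndufb7 and Cox6c, with signals from 4171.5 to 4815.5 in replicate 1 and from 5454 to 6257 in replicate 2. For 12 of the 25 the probe set name ends in _s_at or _x_at, marks of probes that can match transcripts of other genes, so signal from related genes may be included. For 7 more it ends in _a_at, which marks probes shared by transcripts of 1 gene. All 25 had the higher deposited signal in replicate 2, which was the brighter array. Their ranks within the arrays went both ways, with Pebp1 at 1 in replicate 1 and 6 in replicate 2, and Ywhae at 32 and 13.

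Ribosomal proteins and the respiratory chain were bright as lists, with 14 and 13 members among the 100 brightest genes. Of 49 measured cytosolic ribosomal protein genes 46 (93.9%, against 62.4% of all genes) were above the silent-gene level in both arrays. In the brightest 10% of both were 37 (75.5%, against 8.64%), and the median percentile was 98.4. Rps3, Rps9 and Rps14 read 3858 in replicate 1 and 5457 in replicate 2, 3885 and 5173, and 3617 and 5197 respectively. The dimmest were Rpl3l, a muscle paralogue, with 2.6 and 1.4, Rpl39l, a testis paralogue, with 5.8 and 4.4, and Rpl37 with 3.8 and 6.9. Oxidative phosphorylation subunits were above the level in 75 of 80 cases (93.75%, against 62.4% of all genes). Of the 80, 58 (72.5%, against 8.64%) were in the brightest 10% of both arrays, and the median percentile was 96.5. Ndufc1 read 4554 and 5258. The bottom 3 were Cox4i2, the lung form, with 1.2 and 2.0, Cox8c, the testis form, with 12.4 and 1.2, and Cox8b, of muscle and brown fat, with 7.7 and 11.3. The 100 brightest genes held 18.9% of the summed signal of all genes in replicate 1 and 17.7% in replicate 2, and the 1000 brightest held 62.5% and 60.8%.

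Immediate early genes, which report recent neuronal activity, had a lower median than genes in general. Of 24 measured, 14 were above the silent-gene level in both arrays (58.3%, against 62.4% of all genes), or 7 with the 99th percentile of the background genes (29.2%, against 49.0%), and the median percentile was 39.2 against 49.8. Jund, a stable member of the AP-1 family, was the brightest with 791 in replicate 1 and 1761 in replicate 2. Egr1, a zinc finger factor, read 237 and 332 and Jun 181 and 363, with Klf6 at 151 and 307, Ier5 at 176 and 130.4 and Klf10 at 155 and 56.9. Fos, the most used marker of activity, read 14.5 and 21.6, just above the silent-gene level, and Arc 24.2 and 35.7. Dimmest of all were Egr4 with 2.1 and 1.2, Ier2 with 0.4 and 6.8 and Junb with 0.9 and 10.7, and Fosb read 4.9 and 7.6.

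The spread between the pools was read on quantile-normalized values as log2(value + 16). Among the 7734 genes above the silent-gene level the median absolute difference between the arrays was 0.357, and 641 genes (8.29%) differed by more than 2-fold. Over all 12393 genes the spread was widest in the middle of the range, with a median of 0.442 between the 50th and 60th percentile, and was 0.249 between the 90th and 100th, where 2.51% of genes differed by more than 2-fold. Among the hormones the log2 value of replicate 2 minus that of replicate 1 was -0.04 for Oxt, -0.47 for Avp, 0.98 for Trh and 0.02 for Sst. Trh thus differed between pools by about as much as the 2-fold mark, and the other 3 by less.

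The genes furthest apart between the pools had no list in common. Higher in replicate 2 were Hbs1l, of ribosome rescue, with 22.6 in replicate 1 and 458 in replicate 2, Aph1a, a subunit of gamma-secretase, with 17.1 and 323, Clstn3, a synaptic calsyntenin, with 62.9 and 657, Gfra2, the neurturin receptor, with 79.4 and 793, and P4ha1, which hydroxylates collagen, with 20.9 and 245. Higher in replicate 1 were Hscb, of iron-sulphur cluster assembly, with 215 and 23.7, C87436 with 166 and 18.0, Narf with 212 and 40.6, E130309D02Rik with 130.2 and 23.4 and Rusc2 with 129 and 25.0. With 2 pools these differences have no replicate check.

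**Figure D5:**
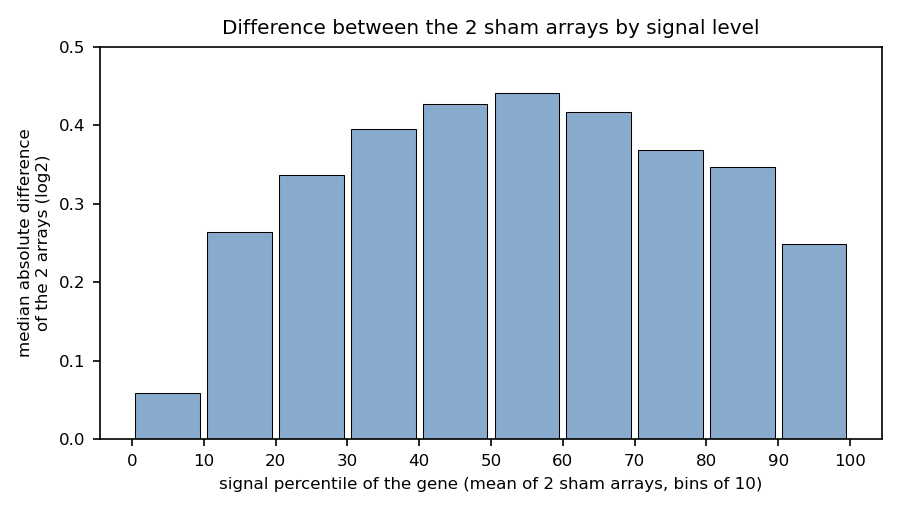
Median absolute difference between the 2 sham arrays (bars, log2 of quantile-normalized value + 16) in bins of 10 percentile points of the mean signal percentile (horizontal). The bars rise to 0.442 at the 50th to 60th percentile and fall to 0.249 above the 90th, and at the dim end the offset of 16 compresses differences between signals below it.

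Most of the brightest genes were shared by any pair of arrays of the series. The 2 sham arrays had 83 of their 100 brightest genes in common. A sham and an ECS array with the same replicate number shared 88 to 91 (4 pairs), and those with different numbers shared 81 to 85 (4 pairs). Pairs of ECS arrays shared 88 to 95 with the same number (2 pairs) and 85 to 90 with different numbers (4 pairs). The sham pair, which has different numbers, lay within the range of the sham and ECS pairs with different numbers. All pairs with the same replicate number shared more of these genes than the 83 of the sham pair, and so did the ECS pairs with different numbers.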

How the data were processed

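Gene expression was measured on Affymetrix mouse arrays in laser-cut PVN of 2 sham and 4 ECS pools of 2 to 3 mice; 2 ng of total RNA was amplified and 5 µg of labelled cDNA was hybridised, per the labels' protocols. The authors deposited intensity signals on a linear scale, for which the submitters' processing notes name MAS5 alone. No label used here states its version, scaling target or detection calls. Means after trimming 2% at each end of each array were 96.9 and 147 in the sham arrays and 98.9 to 131 in the ECS arrays, so no common target was evident. Of 22690 probe sets, 64 controls were left out, and of the rest 20380 carried 1 gene symbol, 691 several and 1555 none. Only the first were used (20351 matched to RefSeq by Entrez identifier, 0 symbols changed), which gave 12393 genes.

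Signals as deposited were ranked within each array in Python 3.11.15 with pandas 2.3.3 and scipy 1.17.1. Log2 differences used quantile normalization over all 6 arrays and an offset of 16. The number of arrays limits the precision. The 29 gene lists, 1 of them the background genes, and the members were chosen with earlier results of these data known, and 2 more lists (imprinted genes, tubulin and actin genes) after seeing the values. Named are the 4 marker peptides, the 25 brightest genes, all members of lists with up to 10 measured genes and otherwise the brightest 6 and lowest 3, receptors of PVN hormones and corticosteroids, the 5 genes furthest apart in each direction between arrays, and members singled out after their values were seen (Gal, Npy, Pdyn, Vip, Apln, Pcsk1, Pam, Pcsk1n, Ptprn, Otp, Ddc, Slc6a3, Slc6a4, Crhr2, Thrb, Pgr, Esr1, Esr2, Gria4, Kcnn3, Trpv2, Trpv4, Gfap, Fos, Fosb, Arc and the imprinted and cytoskeleton genes). The ranking was tested on simulated data. Alternatives covered the level, the background genes, the probe set rule, the offset, the scaling, the filter and each array alone.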

Additional observations from a re-analysis of the deposited data

How the results depend on the processing

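No paired analysis was possible because no result comes from a test between groups. The number of genes above the silent-gene level in both arrays stayed within 1.5 times of 7734 under all 7 alternatives, from 6074 (99th percentile of the background genes) to 9152 (above in at least 1 array), with 7978 for chemosensory receptors alone as background, a setting chosen after seeing the data, 8744 without sham replicate 1 and 8142 without sham replicate 2. The median absolute log2 difference between the arrays, 0.357, was 0.43 with an offset of 1, 0.239 with an offset of 64, 0.509 with the values as deposited, 0.314 without a filter on low values and 0.352 with both sham arrays normalized alone, and array median scaling left it at 0.358. The sham arrays shared 431 of their 500 brightest genes. Of 180 counts over lists, 164 stayed within 1.5 times of the value given. Percentiles of 13 single genes were followed. With the mean over probe sets, 7 of the 13 moved by more than the SD of the arrays, and 3 did when ranked among all probe sets. Leaving out 1 of 2 arrays cannot move a mean by more than the SD and says nothing here. With the mean, Oxt stood at 98.9, Avp at 97.0, Sst at 93.1 and Fos at 38.3, all higher. Each of these 4 has 1 probe set, so their own signals did not change. Mbp fell to 96.8, Ttr to 25.5 and Nr3c1 to 82.2. Signals near the silent-gene level are not resolved by these arrays.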

Other observations

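Imprinted genes, which are expressed from 1 parental copy and of which many act in hypothalamic control of feeding and growth, were bright in the sham PVN. The list was written after the brightest genes had been seen, so its level is a description. Of 29 measured genes 24 (82.8%) were above the silent-gene level in both arrays, against 62.4% of all genes, and 11 (37.9%) were in the brightest 10% of both, against 8.64%. Ndn, the necdin gene of the Prader-Willi region, read 4177 in replicate 1 and 5362 in replicate 2 at rank 27, with 5 of its 8 probe sets above the level. Nnat, neuronatin, read 3361 and 5623, the zinc finger gene Peg3 2496 and 4348, Nap1l5 2853 and 3651 and Gnas 2238 and 3733. Plagl1 read 1774 and 2402, the noncoding Meg3 1099 and 1190.4 and the ubiquitin ligase Ube3a 575 and 1603. Magel2, a neighbour of Ndn, read 83.0 and 212, and Dlk1 read 198 and 199. Airn passed the level in 1 array, and the 4 below it in both arrays were Mkrn3 with 0.1 and 3.9, Phlda2, of the placenta, with 2.4 and 2.2, Slc38a4 with 4.4 and 6.0 and Cdkn1c with 1.7 and 11.2.

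Tubulin, actin and actin-binding genes, also listed after their values had been seen, were above the level in 17 of 20 cases (85.0%, against 62.4% of all genes). In the brightest 10% of both arrays were 14 (70.0%, against 8.64%). Actb read 2891 in replicate 1 and 5155 in replicate 2, Tmsb10 4057 and 5071 and Cfl1 2957 and 3127. Tubb6 read 5.0 and 72.1 and was the least alike between the pools.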
